A study of Mus musculus with 23 samples.

Results

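The comparison set 3 hippocampal libraries of the group PS19_rescue against 3 of the group WT_HA, across all genes, and asked what remained different from wild type in tau mice given extra LSD1. These are 6 of the 23 libraries of the series, taken by their sample titles. PS19_rescue mice carried the PS19 transgene, which makes a mutant human tau, had both wild-type copies of LSD1, and had received in the hippocampus an adeno-associated virus that expresses LSD1 in neurons. WT_HA mice were wild type and had received the HA control virus. A further group, PS19_HA (3 libraries), carried the transgene with the HA virus and is given beside the others. All 3 groups were C57BL/6 mice at 11 months of age. Wild-type mice with the LSD1 virus are not among the groups analysed here, so the parts of the transgene and of the LSD1 virus in a difference between PS19_rescue and WT_HA cannot be told apart by that difference alone. A separate set of uninjected mice at 9 months, 4 PS19 libraries and 4 wild-type (WT) libraries, shares no library with these groups. Its values are given for some genes, and a missing value does not mean that the gene was not measured there. The fit of that set also held 9-month Lsd1 heterozygotes (Lsd1Δ/+), with and without the transgene, which entered its estimate of the spread. By Xist and the Y-linked genes, all libraries of 9 months were male-type.

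LSD1 is the histone demethylase encoded by Kdm1a, and it works with the CoREST proteins to keep genes of other cell fates silent, and neurons need it to survive. Tau is a microtubule-binding protein that aggregates in tauopathies. In the PS19 line, the transgene is driven by the promoter of the mouse prion protein gene Prnp. Tau pathology in this model comes with a reaction of the glia: microglia take up a disease-associated state with phagocytic, lysosomal and lipid genes, astrocytes raise the intermediate filaments Gfap and Vim, complement components accumulate, and genes of the interferon response and of antigen presentation are induced. Each of these programmes is described here by a list of genes, whose counts stand beside those of all genes tested.

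Counted reads ran from 16579034 to 24644977 per library in the 3 groups, and 19290 genes passed the filter on low counts. Levels are CPM, the counts of a gene scaled to library size after TMM normalization, always in the order of replicates 1, 2 and 3. They are not divided by gene length, so levels of different genes are not compared. The labels do not say that the libraries of a group came from separate animals, and the p-values measure the spread between these samples. WT_HA replicate 2 stood apart: 16.2% of its reads were on mitochondrial genes, against 4.40% to 5.63% in the other libraries of the 3 groups. In replicate 3 of WT_HA and of PS19_rescue, the summed level of 11 striatal marker genes was 747 and 663 CPM, against 213 to 284 CPM in the other libraries of these groups, and that of 15 choroid plexus genes was 1106 and 2316 CPM against 52.7 to 207 CPM. In PS19_HA the choroid plexus sum was 3613, 4094 and 439 CPM, so replicates 1 and 2 of that group were the highest. By Xist and the Y-linked genes, each group held 2 female-type libraries and 1 male-type, which was replicate 3 in WT_HA and PS19_HA and replicate 1 in PS19_rescue. Markers of hippocampal CA1, CA3 and dentate granule neurons were present in every library, at summed levels of at least 447 CPM per list. In whole tissue, fewer cells of a type and less RNA per cell cannot be told apart.

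Few genes differed from wild type beyond the spread between libraries. The called genes with known roles include Kdm1a itself, Prnp, the complement gene C4b and the interferon-induced genes Cxcl10, Gbp2b, Ifi27 and Rnf213. edgeR's quasi-likelihood test with Benjamini-Hochberg adjustment called 3 genes higher in PS19_rescue (0.0156% of those tested) and 1 lower (0.00518%). The higher genes were Kdm1a, Lamr1-ps1 and a lincRNA given under the other observations, and the lower gene was mt-Nd4l. DESeq2, the second tool, called 15 higher (0.0778%) and 2 lower (0.0104%), and these 17 genes include all 4 of edgeR. Prnp and the immune genes named here were called by DESeq2 alone. Without adjustment, edgeR's p was under 0.05 for 449 higher genes (2.33%) and 324 lower genes (1.68%). All 3 PS19_rescue libraries lay above all 3 WT_HA libraries for 1117 genes (5.79%) and below them for 962 (4.99%). With the replicate number as a block, edgeR called 0 genes higher and 0 lower, while DESeq2 called 31 higher and 11 lower. Leaving out PS19_rescue replicate 2 or any WT_HA library, edgeR called 0 genes higher, and without PS19_rescue replicate 2 DESeq2 called 8 higher and 4 lower. In PS19_HA against WT_HA, a comparison that uses the same control libraries, DESeq2 called 104 genes higher (0.55%) and 16 lower (0.0847%), and every PS19_HA library was above every WT_HA library for 1509 genes (7.82%). In PS19_rescue against PS19_HA, edgeR called 0 genes higher (0%) and 0 lower (0%), with 121 higher (0.627%) and 229 lower (1.19%) at an unadjusted p under 0.05. DESeq2 called 1 gene higher there, Kdm1a (0.00519%), and 2 lower (0.0104%). All PS19_rescue libraries were above all PS19_HA libraries for 673 genes (3.49%) and below them for 704 (3.65%).

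Kdm1a (chr4:136550540-136602723; all gene positions are from GENCODE on GRCm38), the gene the virus carries, rose far beyond both control groups. It stood at 67.5, 62.7 and 65.8 CPM in WT_HA, at 64.7, 62.8 and 62.2 CPM in PS19_HA and at 10980, 3011 and 1785 CPM in PS19_rescue. PS19_rescue replicate 1 held several times the level of the other treated libraries, and no treated library overlapped a control. The mean was 80.5-fold that of WT_HA, a log2 difference of 6.33 (SE 0.67; adjusted p = 0.0312 in edgeR and 3.20e-18 in DESeq2). DESeq2 called Kdm1a under all 11 alternatives tried, whereas the edgeR call was lost in 8 of 13, including the fit with the replicate block (adjusted p = 0.0702) and those without PS19_rescue replicate 2 (0.0712) or WT_HA replicate 1 (0.274), 2 (0.493) or 3 (0.257). Without PS19_rescue replicate 1 the log2 difference was 5.20. Reads of the viral copy that align to the mouse gene are counted on it, so this level does not separate the viral from the cell's own transcript. Of the 14 tested members of the LSD1-CoREST complex list, Kdm1a alone was above every WT_HA library (7.14%, against 5.79% of all genes). The median log2 difference was 0.04 against 0.0019 over all genes. Kdm1b, its paralogue, was the 1 member of the 14 below every WT_HA library (background 4.99%), at a log2 difference of -0.15, and was not called.

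Prnp (chr2:131909928-131938429), which encodes the prion protein and whose promoter drives the transgene, rose in both tau groups. Its level was 736, 689 and 628 CPM in WT_HA, 1604, 1640 and 1480 CPM in PS19_HA, and 1756, 1614 and 1235 CPM in PS19_rescue. Both tau groups lay above wild type without overlap, and they overlapped each other. PS19_rescue was 2.24-fold WT_HA, a log2 difference of 1.17 (SE 0.15; adjusted p = 0.0745 in edgeR, 6.38e-10 in DESeq2, which called it under all 11 alternatives). The log2 difference of PS19_rescue from PS19_HA was -0.04, and that of PS19 from WT at 9 months was 1.08 (adjusted p = 3.41e-05 in DESeq2). How far reads of the transgene are counted on Prnp was not tested.

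Lamr1-ps1, a processed pseudogene that lies just upstream of Prnp (chr2:131904086-131904959), was read only in tau mice among the 11-month groups. It had 0 reads in each WT_HA library, 2.66, 3.37 and 2.32 CPM in PS19_HA, and 1.91, 2.85 and 1.50 CPM in PS19_rescue. The 138 reads in PS19_rescue made it at least 45.1-fold higher, against a floor of 3 reads over the group (adjusted p = 0.0312 in edgeR, 6.17e-07 in DESeq2). DESeq2 kept this call under all 11 alternatives, and edgeR lost it in 9 of 13, with an adjusted p of 0.0597 under the replicate block, 0.185 and 0.0712 without PS19_rescue replicate 1 or 2, and 0.0802, 0.134 and 0.13 without WT_HA replicate 1, 2 or 3. As a pseudogene its reads may be shared with near-identical copies, since the handling of such reads is not given in the sources used here. Mapt, the mouse tau gene, did not pass the test. It stood at 508, 461 and 506 CPM in WT_HA, 524, 544 and 551 CPM in PS19_HA and 525, 501 and 548 CPM in PS19_rescue. The PS19_rescue and WT_HA libraries overlapped, with a log2 difference of 0.09 (SE 0.10; adjusted p = 0.875 in edgeR). How far reads of the human transgene align to mouse Mapt was not tested.

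**Figure D1:**
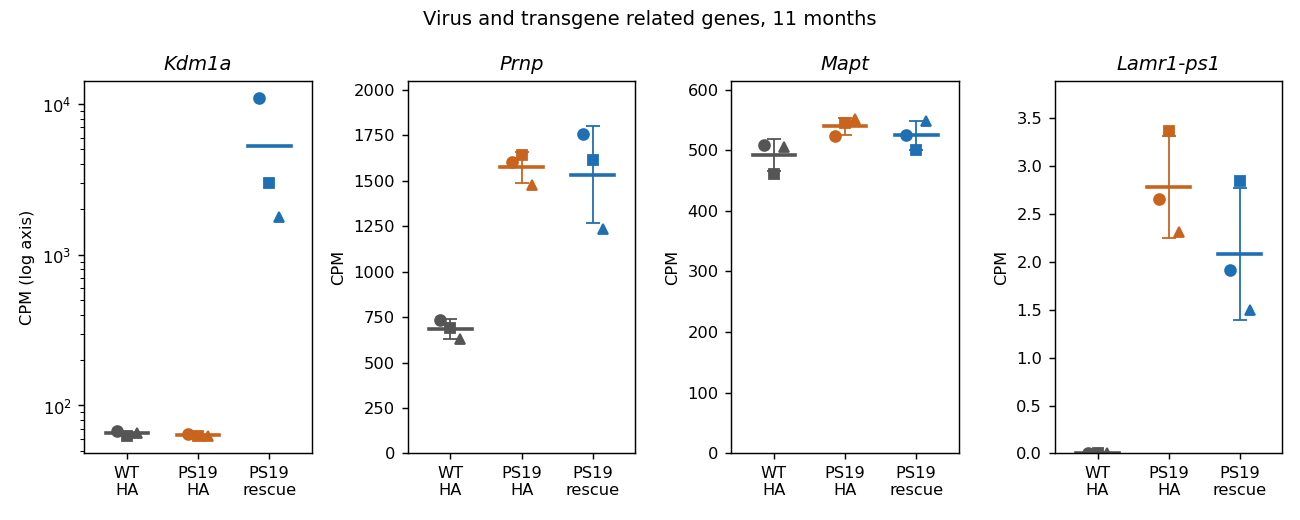
Kdm1a, Prnp, Mapt and Lamr1-ps1: each point is 1 library (its shape gives the replicate), with CPM on the vertical axis (a log axis for Kdm1a), the group on the horizontal axis, horizontal lines at group means and, on the linear axes, whiskers of 1 SD. Kdm1a is high in PS19_rescue alone, from 1785 to 10980 CPM, while Prnp is high in both tau groups, from 1235 to 1756 CPM against 628 to 736 CPM in WT_HA.

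Several immune genes stayed above wild type in PS19_rescue. Cxcl10 (chr5:92346638-92348889), an interferon-induced chemokine that attracts T cells, had 0.72, 0.367 and 0.44 CPM in WT_HA, 1.67, 3.59 and 3.46 CPM in PS19_HA and 3.88, 3.95 and 1.12 CPM in PS19_rescue. The groups did not overlap, although PS19_rescue replicate 3 was well under the other treated libraries. It was 5.86-fold higher, a log2 difference of 2.51 (SE 0.55; adjusted p = 0.0245 in DESeq2, 0.864 in edgeR), and DESeq2 kept the call under 7 of 11 alternatives. It lost the call without PS19_rescue replicate 1 (adjusted p = 0.441) or 2 (0.365) and without WT_HA replicate 2 (0.239) or 3 (0.191).

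Gbp2b (chr3:142594847-142619179), a guanylate-binding protein of the interferon response that is also used as a marker of reactive astrocytes, had 0 reads in each WT_HA library. Its level was 2.21, 5.16 and 5.49 CPM in PS19_HA and 5.92, 2.42 and 3.73 CPM in PS19_rescue. All tau libraries were thus above all wild-type libraries, and both tau groups overlapped. With 253 reads in PS19_rescue it was at least 82.7-fold higher against the floor of 3 reads over the group (adjusted p = 1.66e-08 in DESeq2, kept under all 11 alternatives, and 0.0745 in edgeR). At 9 months its log2 difference was 4.48 (adjusted p = 0.00554 in DESeq2). The gene lies near called lincRNAs of chromosome 3, which are given under the other observations. Whether its position has a part in its difference was not tested.

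C4b (chr17:34728380-34743882), a component of the complement cascade made by astrocytes and oligodendrocytes, was higher in every tau library than in any wild-type library. It stood at 69.1, 38.5 and 50.2 CPM in WT_HA, 116, 289 and 358 CPM in PS19_HA, and 195, 153 and 176 CPM in PS19_rescue. The PS19_rescue libraries lay within the range of PS19_HA. PS19_rescue was 3.32-fold WT_HA, a log2 difference of 1.73 (SE 0.37; adjusted p = 0.00512 in DESeq2, 0.864 in edgeR). DESeq2 lost the call under the replicate block (adjusted p = 0.152), without PS19_rescue replicate 1 (0.148), and without WT_HA replicate 2 (0.0909) or 3 (0.0503). The log2 difference was 2.27 in PS19_HA against WT_HA, and 2.96 at 9 months (adjusted p = 0.00075 in DESeq2).

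Ctsc (chr7:88278085-88310888), the lysosomal protease cathepsin C, had 10.8, 12.4 and 10.6 CPM in WT_HA and 24.3, 16.3 and 22.7 CPM in PS19_rescue, with 20.2, 27.2 and 24.3 CPM in PS19_HA. The lowest treated library was replicate 2, still above all wild-type libraries. The log2 difference was 0.91 (SE 0.18), with an adjusted p of 0.0199 in DESeq2 and 0.864 in edgeR. DESeq2 kept the call under 7 of 11 alternatives. It was lost without PS19_rescue replicate 1 (0.465) or 3 (0.176) and without WT_HA replicate 1 (0.154) or 3 (0.215).

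Ifi27 (chr12:103434211-103440239), an interferon-induced membrane protein of mitochondria and the nuclear envelope, had 19.4, 11.8 and 19.6 CPM in WT_HA and 30.5, 32.9 and 31.3 CPM in PS19_rescue. The treated libraries were close to each other and to the 32.0, 36.3 and 27.9 CPM of PS19_HA. The log2 difference was 0.89 (SE 0.19), with an adjusted p of 0.0284 in DESeq2 and 0.864 in edgeR. DESeq2 kept the call under 6 of 11 alternatives and lost it without PS19_rescue replicate 1, 2 or 3 (0.35, 0.367 and 0.162). Rnf213 (chr11:119393100-119487418), an interferon-induced ubiquitin ligase active against microbes, had 18.3, 14.3 and 15.8 CPM in WT_HA, 20.9, 31.7 and 28.0 CPM in PS19_HA, and 33.8, 32.5 and 24.4 CPM in PS19_rescue. The PS19_rescue and WT_HA libraries of Rnf213 did not overlap. The log2 difference was 0.90 (SE 0.19), with an adjusted p of 0.0301 in DESeq2 and 0.864 in edgeR. DESeq2 kept the call under 5 of 11 alternatives. The call was lost without PS19_rescue replicate 1 (0.653) or 2 (0.471) and without WT_HA replicate 2 (0.285) or 3 (0.247).

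Of the remaining called genes with a name, Il3ra (chr14:14346275-14356011), the receptor chain for interleukin 3, had 1.86, 0.796 and 1.16 CPM in WT_HA and 3.35, 3.31 and 3.19 CPM in PS19_rescue. Its PS19_rescue libraries lay above those of PS19_HA as well, at 2.84, 2.49 and 2.72 CPM. The log2 difference from WT_HA was 1.35 (SE 0.29), with an adjusted p of 0.0301 in DESeq2 and 0.864 in edgeR. DESeq2 kept the call under only 2 of 11 alternatives and lost it under the replicate block (0.0936). Without PS19_rescue replicate 1, 2 or 3 its adjusted p in DESeq2 was 0.465, 0.367 and 0.176, and without WT_HA replicate 2 or 3 it was 0.21 and 0.309. Sspo (chr6:48448229-48501250), which encodes SCO-spondin, a large secreted glycoprotein of the subcommissural organ, had 1.48, 0.919 and 1.84 CPM in WT_HA and 3.59, 3.14 and 4.04 CPM in PS19_rescue. These groups did not overlap for Sspo. The log2 difference was 1.32 (SE 0.28), with an adjusted p of 0.0301 in DESeq2 and 0.864 in edgeR. DESeq2 kept the call under 4 of 11 alternatives. Without PS19_rescue replicate 1, 2 or 3 its adjusted p in DESeq2 was 0.437, 0.143 and 0.351, and without WT_HA replicate 1 or 2 it was 0.17 and 0.239.

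**Figure D2:**
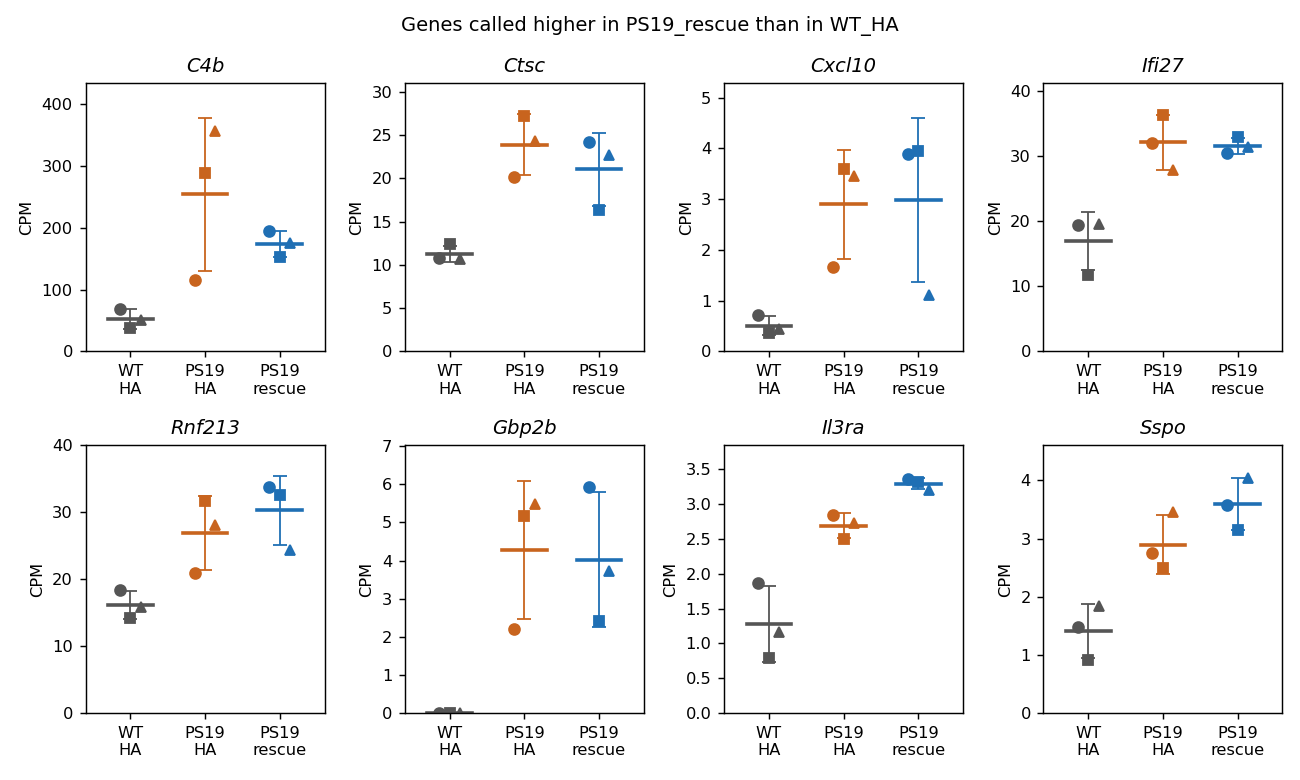
Each panel shows 1 gene that DESeq2, and not edgeR, called higher in PS19_rescue than in WT_HA. The vertical axis gives the level of every library in CPM and the horizontal axis the 3 groups. Horizontal lines are group means, with whiskers of 1 SD. The PS19_rescue libraries lie above the WT_HA libraries in each panel, as for Ctsc at 16.3 to 24.3 CPM against 10.6 to 12.4 CPM.

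Of the 15 genes called higher, 13 were also tested at 9 months, where 12 were higher in PS19 than in WT and DESeq2 called 7. The 7 were Prnp, Lamr1-ps1 (log2 difference 9.09), Gbp2b, a lincRNA of chromosome 3, C4b, Cxcl10 and Rnf213 (1.59). DESeq2 did not call Ctsc (1.25), Ifi27 (1.01), Sspo (1.01), Il3ra (0.27), Kdm1a (-0.06) or a pseudogene (0.17) there. Over the 18981 genes tested in both cohorts, 46.4% were higher in PS19 at 9 months, and DESeq2 called 0.938% of the genes tested there higher. The largest of these differences among the named immune genes was that of Cxcl10, at a log2 difference of 5.34 (adjusted p = 3.82e-10 in DESeq2). Of the same 15 genes, DESeq2 also called 9 in PS19_HA against WT_HA, where it called 0.55% of all genes higher. That comparison uses the WT_HA libraries on which the 15 were called, so its count is not independent. In PS19_rescue against PS19_HA, DESeq2 called 1 of the 15, Kdm1a (background 0.00519% higher).

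The interferon response stood above wild type in PS19_rescue. All 35 genes of the list had higher values than in WT_HA, against 50.3% of all genes tested. Every PS19_rescue library was above every WT_HA library for 22 of the 35 (62.9%, against 5.79% of all genes), and edgeR's unadjusted p was under 0.05 for 26 higher genes (background 2.33%). Cxcl10 was the only member called by either tool after adjustment. The median log2 difference of the list was 1.11, against 0.0019 over all genes, and ranged from 0.84 without PS19_rescue replicate 1 to 1.40 without PS19_rescue replicate 3. Its summed level was 189, 194 and 169 CPM in WT_HA, 223, 357 and 329 CPM in PS19_HA and 368, 318 and 236 CPM in PS19_rescue. The lowest treated library, replicate 3, was above all wild-type libraries.

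To show the DNA in front of such genes, 300 bases around the start of each gene, from 250 before to 50 after it, were taken from RefSeq promoters of GRCm38.p6. They were searched on both strands for 2 copies of GAAA with any 2 bases between them, which reads as 2 copies of TTTC on the other strand. This is the core of the interferon-stimulated response element, and overlapping matches were counted. Of 24 interferon list genes with a promoter in the table, 16 held a match (66.7%), against 3.67% of the 12813 tested genes with a promoter and 3.99% of all 27025. A match was present in 12 of the 16 list genes whose PS19_rescue libraries were above every WT_HA library and in 4 of the 8 that overlapped. The share was 16.7% for class I antigen-presentation genes (2 of 12), 16.7% for reactive astrocyte genes (4 of 24), 10.7% for disease-associated microglial genes (3 of 28), 7.69% for complement and Fc receptor genes (1 of 13), and 0 of 4 class II genes held one. Among the 10 genes called higher that have a promoter in the table, 2 held it, Cxcl10 and Gbp2b. These are shown with the effector gene Ifit1 and the modifier gene Isg15, whose matches lie nearer the start. Each runs 5′ to 3′ on the strand of its gene, with the matches in capitals. Cxcl10 spans chr5:92348840-92349139 (minus strand) with its match starting 213 bases before the start, Ifit1 chr19:34640639-34640938 (plus strand) with matches at 104 and 85 bases, Isg15 chr4:156200769-156201068 (minus strand) with 3 overlapping matches at 78, 72 and 66 bases, and Gbp2b chr3:142594597-142594896 (plus strand) with 1 at 137 bases.
Cxcl10: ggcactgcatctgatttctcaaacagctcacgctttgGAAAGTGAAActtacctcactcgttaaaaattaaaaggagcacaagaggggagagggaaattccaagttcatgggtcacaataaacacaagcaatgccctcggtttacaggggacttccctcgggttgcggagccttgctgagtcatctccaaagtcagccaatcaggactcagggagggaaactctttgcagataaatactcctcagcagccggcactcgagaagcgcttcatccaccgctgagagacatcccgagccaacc
Ifit1: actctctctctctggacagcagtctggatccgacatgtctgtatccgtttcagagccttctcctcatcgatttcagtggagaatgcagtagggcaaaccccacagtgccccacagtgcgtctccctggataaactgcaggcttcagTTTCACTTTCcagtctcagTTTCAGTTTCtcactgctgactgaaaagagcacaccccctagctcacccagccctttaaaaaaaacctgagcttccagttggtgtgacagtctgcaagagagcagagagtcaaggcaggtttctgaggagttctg
Isg15: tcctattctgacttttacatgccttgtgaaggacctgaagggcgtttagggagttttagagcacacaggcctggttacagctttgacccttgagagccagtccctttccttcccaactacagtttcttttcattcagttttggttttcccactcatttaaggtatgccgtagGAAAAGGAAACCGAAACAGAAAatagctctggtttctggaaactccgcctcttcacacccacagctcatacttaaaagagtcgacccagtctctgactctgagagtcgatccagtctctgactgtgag
Gbp2b: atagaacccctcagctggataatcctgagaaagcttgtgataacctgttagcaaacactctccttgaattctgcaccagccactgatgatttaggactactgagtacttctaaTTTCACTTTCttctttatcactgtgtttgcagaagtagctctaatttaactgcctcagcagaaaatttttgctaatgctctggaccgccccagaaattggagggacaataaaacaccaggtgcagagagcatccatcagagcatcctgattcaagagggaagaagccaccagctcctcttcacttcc
A match describes the letters of these windows and is not a measured binding site.

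The genes described next by their role were chosen after their values were seen, and none of them was called after adjustment. Among the sensors and signalling proteins of the interferon response, Ddx58 (RIG-I, a sensor of foreign RNA in the cytosol) had 5.89, 8.21 and 5.43 CPM in WT_HA and 12.8, 11.2 and 9.20 CPM in PS19_rescue, a log2 difference of 0.77 (SE 0.21). Irf7, the factor that amplifies interferon production, had 1.48, 0.735 and 1.28 CPM in WT_HA and 4.84, 4.67 and 1.85 CPM in PS19_rescue, a log2 difference of 1.67 (SE 0.48). In both genes the groups did not overlap, and PS19_rescue replicate 3 was the lowest treated library.

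Among the antiviral effectors, replicate 3 was again the lowest treated library. Ifit1, which blocks translation of foreign RNA, and whose promoter with 2 matches is printed above, had 3.13, 3.37 and 2.04 CPM in WT_HA, 3.70, 7.92 and 5.61 CPM in PS19_HA, and 8.37, 8.37 and 4.62 CPM in PS19_rescue (log2 difference from WT_HA 1.32, SE 0.35). Isg15, a ubiquitin-like modifier, had 1.91, 1.04 and 1.80 CPM in WT_HA and 4.48, 4.59 and 2.42 CPM in PS19_rescue (1.25, SE 0.35). In both genes replicate 3 of PS19_rescue was nearest to wild type, and the groups did not overlap. Rsad2 (viperin, an inhibitor of viral replication) had 1.69, 1.78 and 1.32 CPM in WT_HA and 5.56, 4.54 and 2.58 CPM in PS19_rescue (1.40, SE 0.34). For Mx1, a dynamin-like antiviral GTPase, the levels were 0.296, 0.429 and 0.32 CPM and 2.15, 1.70 and 0.654 CPM (2.09, SE 0.51). Bst2 (tetherin, which holds budding virus at the membrane) had 2.88, 1.41 and 2.40 CPM in WT_HA, 5.36, 7.52 and 7.76 CPM in PS19_HA and 6.63, 5.31 and 4.04 CPM in PS19_rescue (1.24, SE 0.30). All 3 of these genes were without overlap between PS19_rescue and WT_HA.

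**Figure D3:**
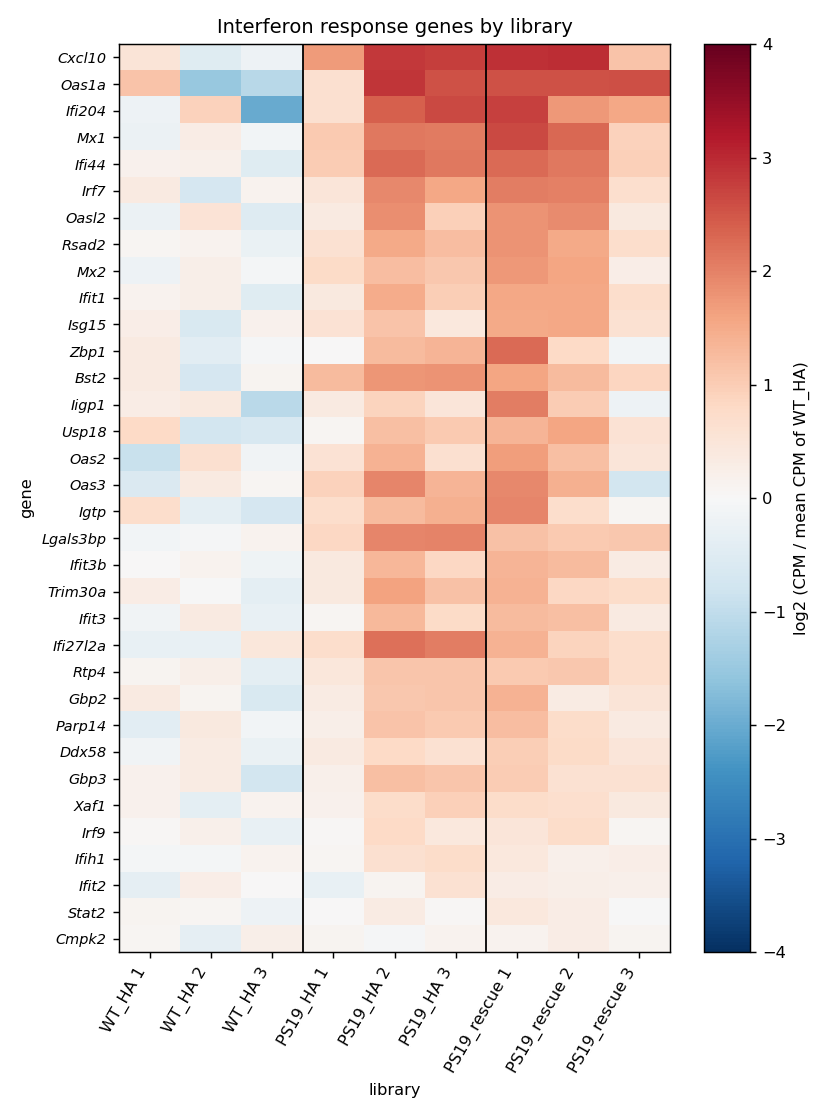
Rows are genes of the interferon response list, 1 of which is not shown, and columns the 9 libraries of the 11-month groups; colour gives log2 of the CPM over the mean CPM of WT_HA. The PS19_rescue columns are mostly above wild type, with replicate 3 nearest to it, as in the summed levels of 368, 318 and 236 CPM against 169 to 194 CPM.

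Beside PS19_HA, the interferon genes of PS19_rescue showed no shared direction. The median log2 difference of PS19_rescue from PS19_HA was 0.10, with 14 of the 35 lower, none without overlap (background 3.49% above and 3.65% below) and none called. Against the shared WT_HA libraries, the median in PS19_HA was 0.94, and 18 members were above every WT_HA library (background 7.82%). At 9 months all 35 were higher in PS19 than in WT, with a median log2 difference of 2.48.

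Antigen-presentation genes also stood above wild type. All 7 class II genes, which microglia and other antigen-presenting cells use to show peptides to CD4 T cells, had higher values in PS19_rescue, 5 of them without overlap (71.4%, against 5.79%), with a median log2 difference of 1.70 (1.17 without PS19_rescue replicate 1, 2.01 without WT_HA replicate 2). None was called after adjustment. Cd74, the invariant chain, had 11.4, 11.9 and 5.91 CPM in WT_HA, 15.4, 43.9 and 111 CPM in PS19_HA and 53.7, 21.0 and 30.2 CPM in PS19_rescue. The treated libraries did not overlap wild type and lay within the range of PS19_HA, with a log2 difference from WT_HA of 1.85 (SE 0.65; adjusted p = 0.967 in DESeq2). H2-Aa, the alpha chain of a class II molecule, had 3.90, 4.47 and 2.52 CPM in WT_HA and 24.7, 9.21 and 11.9 CPM in PS19_rescue. Here too replicate 1 was the highest treated library (log2 difference 2.08, SE 0.71).

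All 14 class I genes, which show peptides from inside the cell, likewise had higher values, 9 of them without overlap (64.3%, against 5.79%), with a median log2 difference of 0.90 (0.59 to 1.17 over the alternatives). H2-K1, a class I heavy chain, had 26.3, 17.8 and 18.4 CPM in WT_HA, 34.0, 53.05 and 89.6 CPM in PS19_HA and 65.2, 43.5 and 38.0 CPM in PS19_rescue (log2 difference from WT_HA 1.23, SE 0.35). Nlrc5, the transactivator of class I genes, had 3.35, 1.72 and 1.80 CPM in WT_HA and 8.85, 5.22 and 4.58 CPM in PS19_rescue (1.43, SE 0.36). In both genes the groups did not overlap and replicate 1 was the highest treated library. B2m, the light chain of class I molecules, overlapped because WT_HA replicate 2 was high: it had 59.7, 124 and 42.0 CPM in WT_HA and 102, 85.0 and 95.0 CPM in PS19_rescue, a log2 difference of 0.33 (SE 0.43).

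Of 17 homeostatic microglial genes, 15 had higher values in PS19_rescue than in WT_HA and 4 were without overlap (23.5%, against 5.79% of all genes), and the median log2 difference was 0.22. Their summed level was 479, 458 and 432 CPM in WT_HA, 496, 664 and 791 CPM in PS19_HA and 516, 528 and 539 CPM in PS19_rescue, so that the treated libraries were close together and just above wild type. Csf1r, the receptor that microglia need to survive, overlapped at 78.0, 53.8 and 63.6 CPM against 72.2, 85.3 and 85.0 CPM (0.31, SE 0.21).

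Disease-associated microglial genes were mostly above WT_HA and below PS19_HA in their fitted differences. Of the 34 genes of that list, 33 passed the filter, 30 had higher values in PS19_rescue than in WT_HA, 19 were above every WT_HA library (57.6%, against 5.79% of all genes) and 1 was below them (background 4.99%). The median log2 difference from WT_HA was 0.69, within 0.52 to 0.76 over the alternatives, and neither tool called a member. Against PS19_HA, 31 of the 33 had lower values, with a median of -0.68 where that of all genes was -0.0071. Of these, 1 was below every PS19_HA library (background 3.65%), 5 had an unadjusted edgeR p under 0.05 on the lower side (background 1.19%), and none was called by DESeq2. In PS19_HA against the same WT_HA libraries the median was 1.35 and DESeq2 called 14 members higher (background 0.55%). PS19_HA replicate 3 was the highest library for many of them, as its summed level of 4712 CPM shows beside 2669 and 3518 CPM in replicates 1 and 2. The sums were 2243, 2427 and 2394 CPM in WT_HA and 2613, 2501 and 3020 CPM in PS19_rescue. PS19_HA replicate 1 thus lay within the range of PS19_rescue, and no fit left out a PS19_HA library.

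Among the receptors of that state, Trem2, a lipid-sensing receptor of microglia, had 8.05, 3.86 and 6.35 CPM in WT_HA, 9.01, 17.2 and 33.9 CPM in PS19_HA and 8.85, 11.3 and 14.1 CPM in PS19_rescue. The treated libraries were above wild type by a log2 difference of 0.90 (SE 0.45; adjusted p = 0.967 in DESeq2). Clec7a, a receptor of phagocytic microglia, had 0.72, 0.735 and 0.24 CPM in WT_HA, 1.49, 8.88 and 33.4 CPM in PS19_HA and 1.55, 1.40 and 3.50 CPM in PS19_rescue. Its log2 difference was 1.97 from WT_HA (SE 1.04) and -2.74 from PS19_HA (SE 0.92; unadjusted p = 0.0147 in edgeR, adjusted p = 1), and the treated libraries overlapped PS19_HA replicate 1. Itgax, the integrin CD11c, had 1.06, 0.674 and 0.32 CPM in WT_HA, 1.49, 7.79 and 27.4 CPM in PS19_HA, and 2.69, 3.44 and 7.58 CPM in PS19_rescue. Its log2 difference was 2.75 from WT_HA (SE 0.98) and -1.41 from PS19_HA (SE 0.84).

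Among the secreted and intracellular products, Cst7, an inhibitor of lysosomal proteases, had 0.212, 0.122 and 0.12 CPM in WT_HA, 1.13, 2.19 and 12.3 CPM in PS19_HA and 0.657, 2.42 and 3.46 CPM in PS19_rescue. It came closest to a call of the list, with a log2 difference of 3.80 (SE 1.11) and an adjusted p of 0.0501 in DESeq2. Ccl3, a chemokine of activated microglia, had 0.0847, 0.0612 and 0.0799 CPM in WT_HA and 0.418, 0.722 and 1.12 CPM in PS19_rescue (3.23, SE 0.75; adjusted p = 0.238 in DESeq2). Apoe, the main lipid carrier of the brain, overlapped at 939, 1159 and 887 CPM in WT_HA and 1035, 1025 and 1218 CPM in PS19_rescue, with 1090, 1627 and 1860 CPM in PS19_HA. Fabp5, a fatty-acid-binding protein, was the member below every WT_HA library. It had 29.7, 54.9 and 40.7 CPM in WT_HA, 40.6, 42.0 and 53.6 CPM in PS19_HA and 28.3, 26.1 and 28.6 CPM in PS19_rescue. The log2 difference was -0.59 from WT_HA (SE 0.21; unadjusted p = 0.0187 in edgeR) and -0.71 from PS19_HA (SE 0.21; unadjusted p = 0.00712), and neither was called.

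Complement and Fc receptor genes were also mostly above wild type. Of 19 genes, 18 were tested, 17 had higher values in PS19_rescue than in WT_HA and 11 were without overlap (61.1%, against 5.79%), with a median log2 difference of 0.70 (0.60 to 0.78 over the alternatives). C4b, described above, was the called member. The summed level was 208, 182 and 182 CPM in WT_HA, 270, 624 and 996 CPM in PS19_HA and 406, 341 and 436 CPM in PS19_rescue. PS19_HA replicate 1 thus lay below every PS19_rescue library. Against PS19_HA, 16 of the 18 had lower values, with a median of -0.52 and none below every PS19_HA library (background 3.65%). C1qa, a chain of the protein that starts the classical cascade, had 34.3, 19.6 and 27.3 CPM in WT_HA, 33.8, 90.8 and 144 CPM in PS19_HA and 56.7, 47.3 and 55.5 CPM in PS19_rescue (log2 difference from WT_HA 0.97, SE 0.43). C3, on which the pathways of the cascade converge, had 3.69, 3.25 and 1.84 CPM in WT_HA, 6.58, 23.7 and 124 CPM in PS19_HA and 7.77, 5.86 and 9.70 CPM in PS19_rescue. It was above wild type by 1.42 (SE 0.89) and differed from PS19_HA by -2.73 (SE 0.86; unadjusted p = 0.0111 in edgeR, not called), with PS19_HA replicate 1 inside the treated range.

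**Figure D4:**
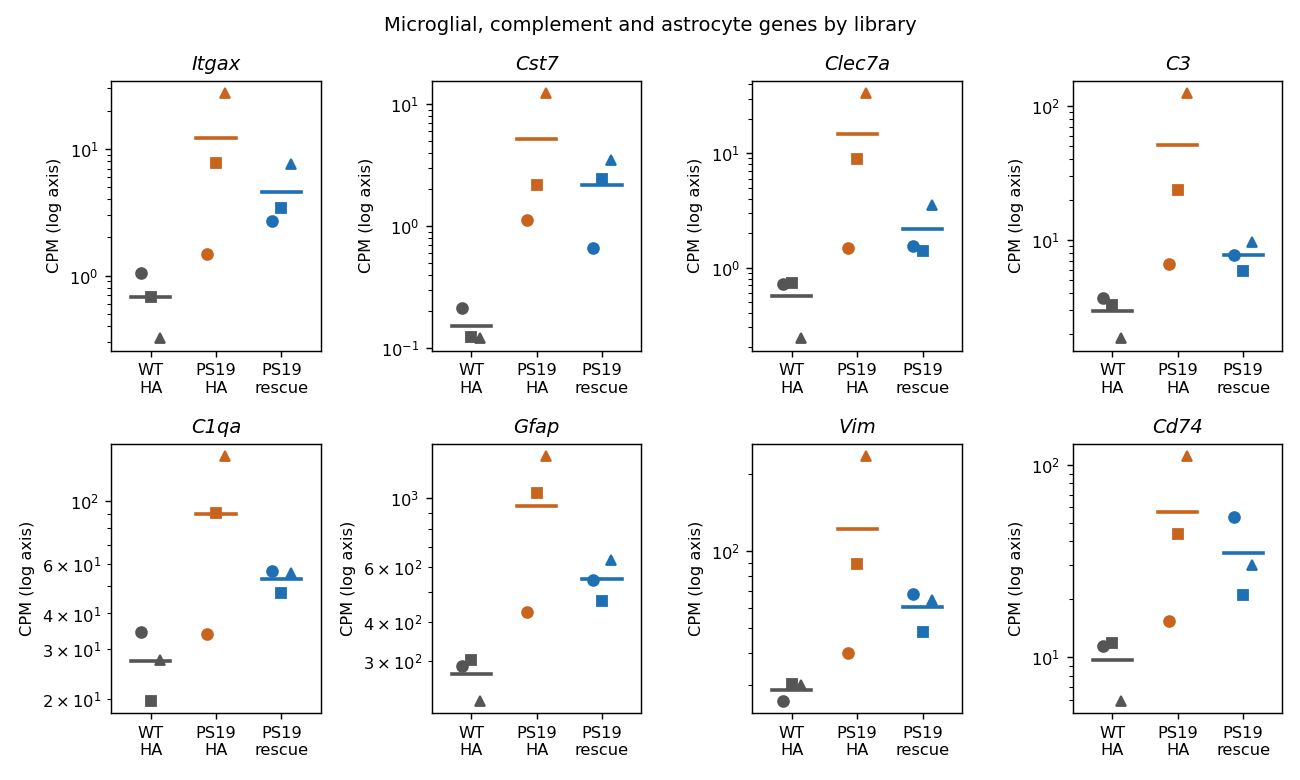
Points are libraries, with CPM on a log axis and the 3 groups side by side, for 8 genes of microglia, complement, antigen presentation and astrocytes; horizontal lines give group means. PS19_rescue libraries sit above wild type for genes such as C1qa (47.3 to 56.7 CPM against 19.6 to 34.3 CPM), and PS19_HA spreads widely, with replicate 3 at the top.

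Reactive astrocyte genes were higher than in wild type for 25 of 28 members, 8 of them without overlap (28.6%, against 5.79%), with a median log2 difference of 0.63 (0.43 to 0.86 over the alternatives). Gbp2b, described above, was the called member. Gfap, the intermediate filament of reactive astrocytes, had 289, 303 and 222 CPM in WT_HA, 432, 1043 and 1370 CPM in PS19_HA and 547, 469 and 631 CPM in PS19_rescue. The treated group did not overlap wild type, and the log2 difference of 1.02 (SE 0.35) had an adjusted p of 0.74 in DESeq2. Vim, the filament vimentin, had 26.0, 30.3 and 30.1 CPM in WT_HA, 40.0, 89.5 and 236 CPM in PS19_HA and 68.1, 48.4 and 64.8 CPM in PS19_rescue (1.07, SE 0.51). In contrast, Cd44, a hyaluronan receptor of reactive astrocytes, overlapped wild type. It had 11.7, 11.1 and 6.59 CPM in WT_HA, 13.3, 20.9 and 34.5 CPM in PS19_HA and 10.9, 9.85 and 12.1 CPM in PS19_rescue, a log2 difference of 0.16 from WT_HA (SE 0.34, with the sign turning to -0.06 without WT_HA replicate 3). The difference of Cd44 from PS19_HA was -1.06 (SE 0.33; unadjusted p = 0.0106 in edgeR, not called). Of the 15 genes of the astrocyte core programme, 9 had higher values, with a median of 0.08, and Slc1a2, the glutamate transporter, overlapped at 4172, 4665 and 3305 CPM against 3910, 4236 and 3289 CPM.

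T cell genes had low levels. Of 16 T cell genes, 7 passed the filter, 5 had higher values and 3 were above every WT_HA library (background 5.79%), with none called. Ccl5, a chemokine of T cells and activated microglia, had 0.169, 0 and 0.04 CPM in WT_HA and 1.02, 1.15 and 0.577 CPM in PS19_rescue (log2 difference 3.49, SE 0.77; adjusted p = 0.105 in DESeq2), without overlap. Lck, a kinase of the T cell receptor, was above wild type at 2.75, 1.91 and 1.35 CPM against 1.14, 1.29 and 1.16 CPM (0.73, SE 0.29). Cd4 overlapped and was highest in replicate 3 of each group, at 4.12 CPM in WT_HA, 2.97 CPM in PS19_HA and 4.19 CPM in PS19_rescue. Of 9 B and plasma cell genes, 6 passed the filter and 5 had higher values, with a median log2 difference of 0.65. None was without overlap (background 5.79% above and 4.99% below). Igkv12-41, a variable segment of the immunoglobulin light chain, was called by DESeq2 (adjusted p = 0.0407) and not by edgeR (0.864). It had 1 read in WT_HA and 123 in PS19_rescue, a ratio of 121 with a 95% counting interval of 21.2 to 4800. The DESeq2 call was lost without PS19_rescue replicate 2 (0.143) or 3 (0.176) and without WT_HA replicate 1 (0.0557), 2 (0.396) or 3 (0.266). Over the 53 immunoglobulin segments tested, 37 were higher, against 50.3% of all genes, and 7 were above every WT_HA library (background 5.79%), and the summed level was 136, 235 and 25.9 CPM in WT_HA and 37.1, 310 and 282 CPM in PS19_rescue, overlapping.

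Synaptic genes had small differences on the lower side. Of 24 presynaptic genes, 18 had lower values in PS19_rescue than in WT_HA, 5 of them below every WT_HA library (background 4.99%), with a median log2 difference of -0.14. Of 24 postsynaptic genes, 21 had lower values and 1 was below every WT_HA library, with a median of -0.19 that was -0.04 without WT_HA replicate 2. No member of either list was called. Snap25, a protein of the vesicle fusion machinery, had 1978, 3123 and 1872 CPM in WT_HA, 1762, 1664 and 2432 CPM in PS19_HA and 1815, 1841 and 1750 CPM in PS19_rescue. WT_HA replicate 2, the library rich in mitochondrial reads, was far above the other wild-type libraries, and the log2 difference was -0.37 (SE 0.22). Pclo, a scaffold of the active zone, had 502, 712 and 438 CPM in WT_HA and 396, 420 and 388 CPM in PS19_rescue (-0.46, SE 0.17; unadjusted p = 0.0229 in edgeR). Syt1, the calcium sensor of release, overlapped at 1810, 2250 and 1631 CPM against 1835, 1740 and 1409 CPM. How far the composition of WT_HA replicate 2 takes part in these differences was not tested beyond leaving it out.

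Inhibitory neuron genes were lower for 14 of 19 members, 4 of them below every WT_HA library (background 4.99%), with a median log2 difference of -0.22. Sst, the neuropeptide somatostatin, had 114, 176 and 91.5 CPM in WT_HA, 84.2, 89.2 and 71.7 CPM in PS19_HA and 81.8, 87.0 and 65.2 CPM in PS19_rescue. It was below wild type without overlap, at -0.70 (SE 0.23; adjusted p = 0.799 in DESeq2). The GABA-synthesizing enzyme Gad1 overlapped at 355, 226 and 439 CPM against 302, 331 and 395 CPM, a log2 difference of 0.01 (SE 0.24). Lists of CA1, CA3 and dentate granule neurons had medians of -0.05, 0.07 and -0.08, with no stable sign. Over the alternatives they ran from -0.19 to 0.12, from -0.14 to 0.29 and from -0.15 to 0.21, and the sign turned in 4, 3 and 4 of 14.

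Stress programmes had no called member. Of 24 genes of the unfolded protein and integrated stress response, 20 had higher values, against 50.3% of all genes, and 6 were above every WT_HA library (25%, against 5.79%), with a median log2 difference of 0.18. Of 18 p53 targets, 15 had higher values and 3 were above every WT_HA library (background 5.79%), with a median of 0.19. The median was -0.12 for 15 heat shock genes and 0.04 for 34 nuclear genes of oxidative phosphorylation, and both changed sign without WT_HA replicate 2, to 0.03 and -0.0047.

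**Figure D5:**
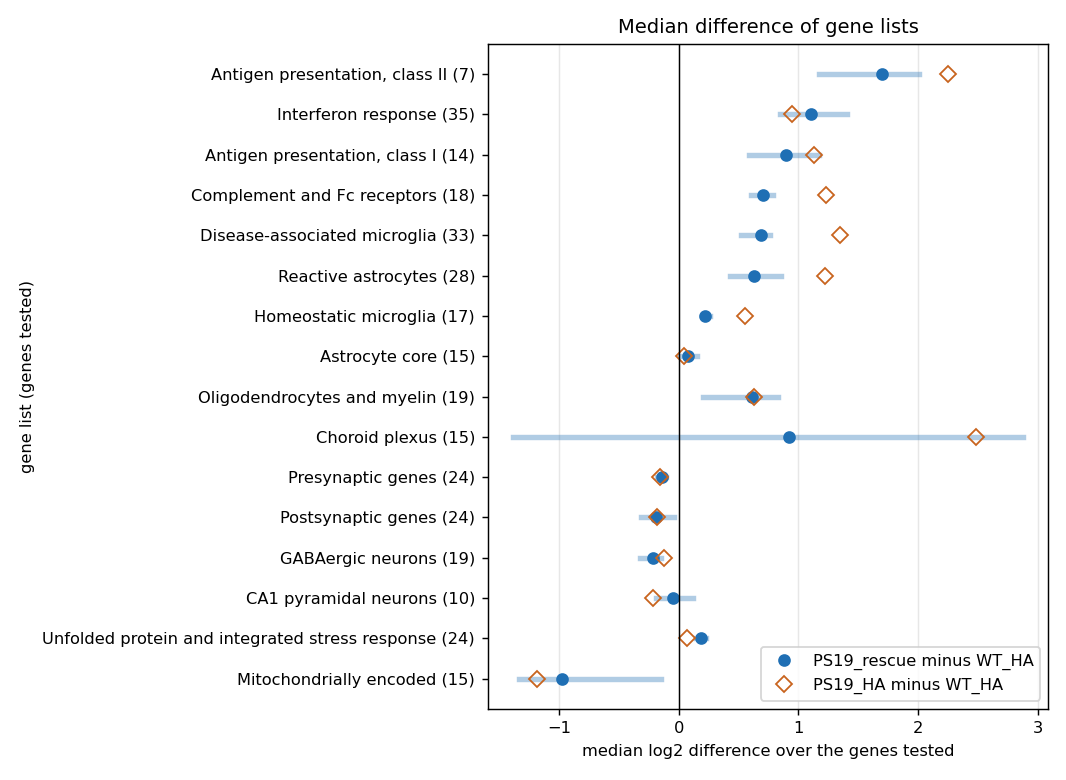
Each row is a gene list with its number of genes tested, and the horizontal axis is the median log2 difference over those genes; filled circles stand for PS19_rescue against WT_HA, with a pale bar for the range over the alternatives, and open diamonds for PS19_HA against the same WT_HA libraries. For PS19_rescue the class II and interferon lists have medians of 1.70 and 1.11, while the synaptic lists lie at -0.14 and -0.19.

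Some lists moved with single libraries. All 19 oligodendrocyte and myelin genes had higher values in PS19_rescue, with a median log2 difference of 0.61, but only 1 was without overlap (5.26%, against 5.79%), and the median was 0.20 without PS19_rescue replicate 3. Mbp, a main protein of myelin, had 1518, 915 and 1984 CPM in WT_HA and 1764, 1767 and 3071 CPM in PS19_rescue, where replicate 3 stood alone at the top. The 15 choroid plexus genes were all higher, with a median of 0.92, yet none was without overlap. That median was -1.38 without PS19_rescue replicate 3 and 2.88 without WT_HA replicate 3. The striatal list had a median of -0.29, which became -1.76 without PS19_rescue replicate 3 and turned to 0.58 without WT_HA replicate 3, 0.10 and 0.05 without PS19_rescue replicate 1 or 2, and 0.12 with sex as a covariate. The part that neighbouring tissue had in other results was not tested. Without PS19_rescue replicate 3 the median was 1.40 for interferon genes, 0.43 for reactive astrocyte genes, 0.52 for disease-associated microglial genes and 0.60 for complement and Fc receptor genes, the last 3 at their lowest over the alternatives.

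The lower calls were mt-Nd4l, by both tools, and 1 predicted gene, by DESeq2. mt-Nd4l (chrM:9877-10173), a mitochondrially encoded subunit of complex I, had 4.49, 8.02 and 7.51 CPM in WT_HA, 0.901, 0.656 and 0.528 CPM in PS19_HA and 0.717, 0.892 and 0.808 CPM in PS19_rescue. Both tau groups lay far below wild type and overlapped each other. The log2 difference was -3.03 (SE 0.30; adjusted p = 0.0312 in edgeR, 1.78e-12 in DESeq2, which kept the call under all 10 alternatives that hold the gene). edgeR lost it under the replicate block (adjusted p = 0.0645), without PS19_rescue replicate 1 (0.185), 2 (0.126) or 3 (0.124), and without WT_HA replicate 2 (0.134) or 3 (0.13). At 9 months the difference was -4.47 (SE 1.67) and was not called (adjusted p = 0.825 in edgeR, undefined in DESeq2); mitochondrial genes took 33.9% of reads in WT replicate 3 and 16.1% in PS19 replicate 3 there. The gene overlaps the next one in the mitochondrial genome, so its reads depend on how the authors' counting assigned shared reads. All 15 mitochondrially encoded genes of the list had lower values in PS19_rescue, 4 of them below every WT_HA library (background 4.99%), with a median of -0.97 that was -0.15 without WT_HA replicate 2.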

How the data were processed

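Poly(A)-selected RNA of hippocampi frozen in Trizol was sequenced, per the labels' protocols. The authors deposited whole-number counts per gene for each library, without normalization. Per the submitters' processing notes, reads were aligned to GRCm38 and counted with tools that include HISAT2 2.1.0, featureCounts 1.6.0.6, Trimmomatic 0.36.5 and FastQC 0.11.7; DESeq2 2.11.40.2 is named too. Annotation release, strandedness and the rule for multiply aligned reads were not given in the sources used here. Pseudogenes, near-identical copies, immunoglobulin segments and overlapping or antisense genes are therefore uncertain, and reads from the virus or the transgene may be counted on the mouse gene.

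Each table listed 54232 identifiers. GENCODE vM21 matched 54165, and the other 67 held 0.0184% of reads. Groups and replicate numbers came from the sample titles. No pair of libraries of a group agreed within sampling noise (chi-square per gene of at least 11.6). The 9 libraries of 11 months were fitted together with edgeR 4.0.16 (R 4.3.3; TMM, quasi-likelihood test, filterByExpr with a minimum count of 10 and a minimum total of 15). The 14 libraries of 9 months, including Lsd1Δ/+ heterozygotes with and without the transgene, had a fit of their own over 20122 genes. DESeq2 1.42.0 was run beside it; it left the adjusted p undefined for 17 genes of PS19_rescue against WT_HA, 391 of PS19_HA against WT_HA and 17 of PS19_rescue against PS19_HA. Calls are Benjamini-Hochberg adjusted p-values under 0.05 over all genes, and log2 differences and their SEs are from edgeR. In simulated counts for 19290 genes, edgeR recovered 39% of 2-fold and 97% of 4-fold changes, and DESeq2 49% and 95%, with 10 false calls by edgeR and 22 by DESeq2. The simulation gave all genes the same spread, changed only genes above a minimum count and set no library apart. Its shares need not hold for the real libraries.

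The comparison, the 36 gene lists and their members were chosen with earlier results of these data known. Named were genes called by edgeR or DESeq2 with a mean of at least 1 CPM in the higher group and, for DESeq2, no overlap, up to 15 per direction; up to 4 called members of each list, or 2 uncalled members with the highest level, of which the report prints a selection; and Kdm1a, Mapt, Prnp and Lamr1-ps1. Predicted genes, other pseudogenes and sex-linked genes were counted, which left 13 of the 17 called genes named. Other names were chosen by role after their values were seen. Of the genes so taken, 2 are not reported here, though they count in their lists. The deviation from the group mean correlated across genes between same-numbered PS19_rescue and WT_HA libraries at 0.136, 0.122 and 0.468, each above 0.1. The replicate block was therefore run as an alternative, but neither the labels nor the data settle that the numbers pair the libraries. While 2 of the 3 PS19_rescue libraries correlated best with their own number, replicate 2 correlated better with WT_HA replicate 1 (0.277). By sex type, numbers 1 and 3 did not match between PS19_rescue and WT_HA. Counting intervals are exact at 95% and cover counting error only. Alternatives were other normalizations, tools, filters and covariates, the replicate block, and leaving out each PS19_rescue or WT_HA library.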

Additional observations from a re-analysis of the deposited data

How the results depend on the processing

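The 3 genes that edgeR called higher became 15 in DESeq2, 0 with the compared groups alone, 0 with the replicate block, 0 with sex as a covariate, and 0 to 3 when 1 library was left out. The 1 gene called lower became 2 in DESeq2, 0 with the compared groups alone, 0 with the replicate block, 0 with the sex covariate, 0 without mitochondrial genes, and 0 to 2 when 1 library was left out. DESeq2's 15 higher calls became 37 with the compared groups alone and 31 with the replicate block, and ran from 8 (without PS19_rescue replicate 2) to 20 (without PS19_rescue replicate 3) in the leave-one-out fits. Its 2 lower calls became 6 with the compared groups alone, 11 with the replicate block, 1 without mitochondrial genes, and 2 to 8 when 1 library was left out, the most without WT_HA replicate 1. The cause of these shifts was not tested, apart from the loss of mt-Nd4l with the mitochondrial genes. Of the single genes the report names, Cd44, which was not called, changed direction: its log2 difference of 0.16 ran from -0.057 (without WT_HA replicate 3) to 0.32 (without WT_HA replicate 1). Under the replicate block, the genes that lost their DESeq2 call were C4b (adjusted p = 0.152), Il3ra (0.0936) and a predicted gene. edgeR had called none of these in the main fit. The planned older version of edgeR's test is the default of this release and equals the fit reported; the newer version called 2 higher and 1 lower. The mitochondrial list and mt-Nd4l have no value without mitochondrial genes. In simulated counts with the same spread for all genes, edgeR recovered 39% of 2-fold changes with 3 libraries a group at this depth. Many differences of this size were thus missed there, and the share missed in the real libraries was not tested.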

Other observations

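Of the 17 called genes, 4 predicted genes and pseudogenes other than Lamr1-ps1 fall outside the naming rule and were chosen for naming after their values were seen. The lincRNA 4930590L14Rik (chr3:140951876-140953247) had 3 reads in WT_HA and 117 in PS19_rescue, a ratio of 38.2 with a 95% counting interval of 12.8 to 188 (adjusted p = 0.0319 in edgeR, 1.48e-05 in DESeq2), and its log2 difference at 9 months was 7.81 (adjusted p = 2.05e-06 in DESeq2). Its edgeR call was lost when any of the 6 libraries was left out (adjusted p from 0.0675 to 0.257), and DESeq2 kept it throughout. Gm32754, a lincRNA nearby, had 0 reads in WT_HA and 33 in PS19_rescue, at least 10.8-fold higher against the floor of 3 reads over the group (adjusted p = 0.0284 in DESeq2, lost without PS19_rescue replicate 3 at 0.087 and without WT_HA replicate 2 or 3 at 0.162 and 0.247). Gm6969, a processed pseudogene, had a log2 difference of 1.10 (adjusted p = 0.0284 in DESeq2), which missed the threshold when any of the 6 libraries was left out (0.0554 to 0.522). Gbp2b and the lincRNAs are 3 of the 17 called genes between 140 and 143 Mb of chromosome 3, where 18 of the 19290 tested genes lie; the window was set by these genes, after the calls were seen.

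Gm5148 (chromosome 3, from base 37714190) was the second gene called lower. It had 0.169, 4.22 and 3.40 CPM in WT_HA, 3.20, 2.71 and 3.46 CPM in PS19_HA and 0.179, 0.0849 and 0.0770 CPM in PS19_rescue. WT_HA replicate 1 was thus at the level of the treated libraries. The log2 difference was -4.51 (adjusted p = 0.00478 in DESeq2), and DESeq2 also called it against PS19_HA (adjusted p = 0.00417). Its call was lost without PS19_rescue replicate 2 (0.0788) and without WT_HA replicate 2 (0.164) or 3 (0.0544).

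Some libraries held reads of both sex types: Y-linked genes stood at 20.6 CPM in WT_HA replicate 2 and 18.6 CPM in PS19_HA replicate 2, both female-type, and Xist at 42.5 CPM in WT_HA replicate 3 and 64.0 CPM in PS19_rescue replicate 1, both male-type. The part of this mixing in the results was not tested.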
